A study of Mus musculus with 3 samples.

Results

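Complement is described here in brain myeloid cells through 8 genes: C1qa, C1qb and C1qc, which encode the 3 chains of C1q, the opening protein of the classical pathway; C3, the central component on which all pathways converge; Cfb and Cfp, which encode factor B and properdin of the alternative pathway; and C3ar1 and C5ar1, the receptors of the anaphylatoxins C3a and C5a. The members were chosen by gene symbol, and each of the 8 matched 1 row of a matrix of 27998 genes. The matrix holds unique molecular identifier (UMI) counts, which count captured RNA molecules, for 2149 single cells sorted for Cd11b from brain without cerebellum and sequenced from the 3′ end of transcripts. All mice were C57BL6J females aged 5 months. The study compared 1 untreated animal (Ctrl), 2 pooled animals fed diet with PLX5622 at 1200 mg/kg for 14 days (D0), and 1 animal given the same 14 days of diet followed by 2 days of control diet (D2); PLX5622 is an inhibitor of Csf1r, the receptor that microglia need to survive. The cells carry barcode suffixes 1, 2 and 3, called libraries 1, 2 and 3 below, and no label ties a suffix to Ctrl, D0 or D2. No treatment is therefore compared, each library is 1 sample, and there is no test across animals.

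C1q binds immune complexes, dying cells and tagged synapses, and activates C4, C2 and then C3, whose fragments coat the target. The alternative pathway amplifies C3 cleavage through factor B, and properdin stabilises the enzyme that does so. In the brain, microglia are a main source of C1q, and the receptors for C3a and C5a are found on macrophages and granulocytes, where they mediate chemotaxis and activation.

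The C1q genes lie side by side on chromosome 4 of mouse build GRCm38, on the minus strand, within 18675 bases: C1qb at chr4:136880129-136886187, C1qc at chr4:136889804-136893065 and C1qa at chr4:136895917-136898803. The 5 other members lie apart, also on the minus strand: C3ar1 at chr6:122847138-122856161, C5ar1 at chr7:16246743-16259540, Cfb at chr17:34856374-34862518, C3 at chr17:57203970-57228136 and Cfp at chrX:20925454-20931555. All 8 are annotated as protein coding. Promoter sequences from RefSeq (GRCm38.p6) were found for 6 of the 8 members. Those of C1qb and C1qc are shown because these neighbours had nearly the same pattern over cell classes, and that of Cfp because its level was low in microglia-like cells, where theirs was highest. Each is the 250 bases before the RefSeq start, which for C1qc lies inside the span above, 5′ to 3′ on the minus strand, with 2 motifs in capitals on either strand: GAGGAA (reverse TTCCTC), core letters of sites bound by the myeloid factor PU.1, and TGCTGA (reverse TCAGCA), letters shared by Maf sites.
C1qb chr4:136886201-136886450: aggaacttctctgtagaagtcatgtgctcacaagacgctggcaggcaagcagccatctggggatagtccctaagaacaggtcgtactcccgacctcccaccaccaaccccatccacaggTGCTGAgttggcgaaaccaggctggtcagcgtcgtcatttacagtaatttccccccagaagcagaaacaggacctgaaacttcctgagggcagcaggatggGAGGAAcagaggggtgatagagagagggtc
C1qc chr4:136892915-136893164: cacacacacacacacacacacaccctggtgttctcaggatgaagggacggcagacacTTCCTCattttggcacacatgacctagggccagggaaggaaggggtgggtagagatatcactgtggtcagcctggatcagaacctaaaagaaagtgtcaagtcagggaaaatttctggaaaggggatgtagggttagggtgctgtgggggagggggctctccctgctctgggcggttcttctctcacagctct
Cfp chrX:20931556-20931805: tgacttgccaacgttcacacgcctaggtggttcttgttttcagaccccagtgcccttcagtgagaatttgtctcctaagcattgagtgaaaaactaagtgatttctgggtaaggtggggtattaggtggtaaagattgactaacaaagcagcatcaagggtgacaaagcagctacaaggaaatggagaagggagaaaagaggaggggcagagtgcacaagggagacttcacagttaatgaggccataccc
GAGGAA was found once in C1qb, once in C1qc and in none of the other 4 matched members, and 23.3% of 32851 promoters of this length hold it. TGCTGA was found in 4 of the 6, namely C1qb, C3, C3ar1 and C5ar1, against 16.1% of promoters. The Cfp window held neither. The motifs were chosen after the sequences had been seen, and a match is only a run of letters.

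After filters 2137 cells remained, 1261 in library 1, 592 in library 2 and 284 in library 3, with a median of 3662, 6188 and 8172 UMIs per deposited cell in that order; no barcode occurred in more than 1 library. Clustering and the marker lists that named the classes both left the complement genes out. Microglia-like cells made up 1085 cells of library 1 (86.0%), 64 of library 2 (10.8%) and 2 of library 3 (0.704%). All 10 microglia markers had UMIs in the microglia-like cells of libraries 1 and 2. Border-associated macrophage-like cells numbered 83, 2 and 2. Those of library 1 also carried all 10 microglia markers, at a summed 19047 counts per 1000000 UMIs against 36285 in microglia-like cells. The 10 markers of their own class summed to 4265 there, against 206 in microglia-like cells of library 1. The part of microglial RNA in the levels of border-associated macrophage-like cells was not tested. One cluster led by cell cycle genes (Nusap1, Mxd3, Cenpf) passed 5 of 10 microglia markers and 5 of 8 markers of Cd209a dendritic cells, so it was given no cell type name and is called the cycling cluster. Levels below are counts per 1000000 UMIs (CPM) of a class in 1 library, with a 95% Poisson interval in brackets that covers counting error only, and 17 class and library units with at least 20 cells are ranked.

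C1q messages were carried mostly by microglia-like cells, which held 80.9% of all C1qa UMIs, 79.0% of C1qb and 79.4% of C1qc. Border-associated macrophage-like cells held a further 10.5%, 10.7% and 11.6%. Shares of this kind, here and below, also depend on how many UMIs a class holds. Microglia-like cells held 4909410 of 6395676 UMIs in library 1, 303838 of 3986033 in library 2 and 20922 of 2786981 in library 3. C1qa, the A chain, stood at 10939 (10847 to 11032) in microglia-like cells of library 1 and at 11312 (10937 to 11697) in those of library 2. It stood at 8676 (8480 to 8876) in border-associated macrophage-like cells of library 1. C1qb, the B chain, stood at 9424 (9338 to 9510), 10321 (9963 to 10689) and 7834 (7647 to 8023) in the same order. C1qc, the C chain, stood at 9134 (9049 to 9219), 8952 (8619 to 9295) and 8100 (7910 to 8293). These 3 units led the order of every chain, with border-associated macrophage-like cells below both microglia-like units. The intervals of the microglia-like units overlapped each other for C1qa and C1qc, and were apart for C1qb, which was 1.10-fold higher in library 2.

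In all other ranked units each chain was at least 3 times lower than in border-associated macrophage-like cells. C1qa came next in the cycling cluster of library 3 at 2629 (2511 to 2750), in Cd209a dendritic-like cells of library 1 at 2135 (1988 to 2289), in neutrophil-like cells of library 2 at 1193 (1105 to 1285) and in monocyte-like cells of library 3 at 893 (837 to 952). The lowest ranked levels were in NK-like cells, lymphocytes used here as the class that should lack C1q. They stood at 30.6 (13.2 to 60.3) in library 2 and 9.04 (0.229 to 50.4) in library 3. The 13 NK-like cells of library 1, too few to be ranked, stood at 1826 (1462 to 2252). That interval overlapped the interval of Cd209a dendritic-like cells of the same library. The 13 neutrophil-like cells of library 1, also too few to be ranked, had C1qa at 4284 (3773 to 4844). Neighbours between the non-classical monocyte-like cells of library 2, at 589 (447 to 762), and those of library 3, at 254 (184 to 341), could not be told apart one from the next. The non-classical monocyte-like cells of library 2 also carried all 6 endothelial markers at a summed 4409 CPM, above the 2611 of their own class's markers, against 69.2 in library 3; the part of endothelial RNA in their levels was not tested. The plot of C1q levels shows the 3 chains tracking each other down this order.

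**Figure D1:**
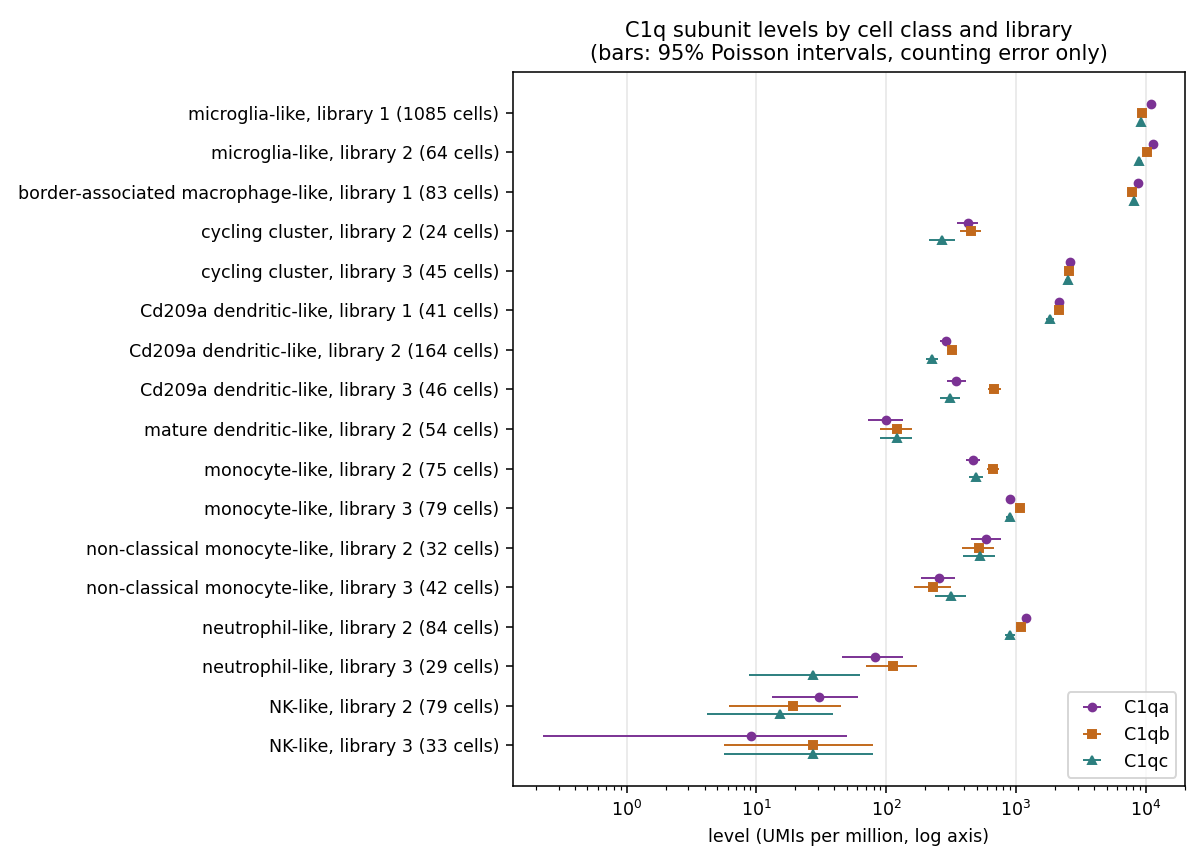
Levels of C1qa, C1qb and C1qc in CPM (log axis) in 17 units of cell class and library, with 95% Poisson intervals. The 2 microglia-like units and the border-associated macrophage-like unit sit between 7834 and 11312 for all chains, and the NK-like units lie at 30.6 or below.

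Almost every microglia-like cell of libraries 1 and 2 had C1q, as did every border-associated macrophage-like cell of library 1. The 2 border-associated macrophage-like cells of library 2 had 0 C1q UMIs (interval 0 to 343 CPM). Of the 2 in library 3, 1 had C1q, and the summed level was 2649 CPM (1953 to 3512). With each cell thinned to 2000 UMIs, C1qa had a UMI in 1016 of 1017 microglia-like cells of library 1 (99.9%; unthinned 99.8% at a median of 3393 UMIs), in 58 of 58 of library 2 (unthinned 100% at 3747.5) and in 83 of 83 border-associated macrophage-like cells (unthinned 100% at 8655). In NK-like cells of library 2 the share was 7.46% (exact binomial interval 2.47 to 16.6; unthinned 10.1% at a median of 3092 UMIs), which serves as the background for library 2. In library 3 it was 3.23% (0.0816 to 16.7; unthinned 3.03% at 3002). In library 1 it was 5 of 11 NK-like cells (45.5%, 16.7 to 76.6; unthinned 53.8% at 3409), with a C1qa level of 1826 (1462 to 2252), so NK-like cells of library 1 do not give a low background; 2 of its 13 cells held 94.3% of their C1q UMIs. The thinned C1qa shares in neutrophil-like cells of library 2, at 35.5% (24.9 to 47.3), and in the cycling cluster of library 3, at 61.4% (45.5 to 75.6), lay above the NK-like share of their own library, and that in monocyte-like cells of library 2, at 16.0% (8.55 to 26.3), overlapped it. Unthinned, these shares were 47.6%, 71.1% and 29.3%, at medians of 5767, 14891 and 5851 UMIs.

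The 3 chains made up steady parts of the C1q UMIs in cells of high level. In microglia-like cells of library 1, C1qa gave 37.1% of C1q UMIs, C1qb 31.9% and C1qc 31.0%, and in library 2 the parts were 37.0%, 33.7% and 29.3%. Border-associated macrophage-like cells gave 35.3%, 31.8% and 32.9%, so that the order of C1qb and C1qc differed from microglia-like cells with intervals for C1qc that did not meet (32.3% to 33.6% against 30.7% to 31.2%). Monocyte-like cells of library 2 carried more C1qb, at 28.8%, 41.0% and 30.1%, as did Cd209a dendritic-like cells of library 3 at 26.0%, 50.7% and 23.3%. In these units 5 cells held 75.6% and 90.7% of the C1q UMIs, so both rest on few cells. The C1qb part was also higher in monocyte-like cells of library 3, at 37.7% (36.0 to 39.5). It was 38.6% (35.9 to 41.4) in Cd209a dendritic-like cells of library 2. In these 2 units 5 cells held 49.0% and 50.3% of the C1q UMIs. The cycling cluster of library 3, at 33.2% (32.0 to 34.5), overlapped microglia-like cells. The chains were counted from their 3′ ends with unknown capture per transcript, and the parts do not rank the chains as proteins.

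Summed over the chains, C1q stood at 26571 CPM over all cells of library 1, at 3473 over all cells of library 2 and at 3459 over all cells of library 3. Within microglia-like cells it was 29496 (29345 to 29649) in library 1 and 30585 (29967 to 31214) in library 2. The 2 microglia-like cells of library 3 gave 13240 (11726 to 14894). Whole libraries 1 and 2 thus differed far more than their microglia-like cells, where the sum was 1.04-fold higher in library 2 with intervals apart. The order of the microglia-like units turned under 3 alternatives: with at least 1000 genes per cell (29379 in library 1 and 28438 in library 2), with at most 5% mitochondrial counts (29459 and 29159) and with each cell named by its own markers (28409 and 26039).

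The microglia markers differed more between these libraries than C1q did. In microglia-like cells all 10 markers were lower in library 2 than in library 1 with intervals apart, and none was higher. P2ry12, a purinergic receptor of homeostatic microglia, read 4917 CPM in library 1 and 1320 in library 2. Tmem119, a microglial surface protein, read 3079 and 629. P2ry13, a related receptor, read 802 and 234. Summed, the 10 markers read 36285 and 20142, so that there were 0.813 C1q UMIs per marker UMI in library 1 and 1.52 in library 2. The cells of library 1 came from clusters of 449, 460 and 176 cells, the last led by Gdf15, Il1a, Tnf and Egr1, and those of library 2 from the same clusters with 35, 6 and 23 cells. Within the cluster of 449 and 35 cells the C1q sum was 31282 (30994 to 31573) in library 1 and 32726 (31691 to 33786) in library 2, and in the cluster led by Gdf15 it was 27409 (27121 to 27701) and 29547 (28727 to 30386). In the cluster with 6 cells of library 2 the order was the other way with overlapping intervals, at 29522 (29296 to 29749) in library 1 and 27218 (25092 to 29476) in library 2.

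**Figure D2:**
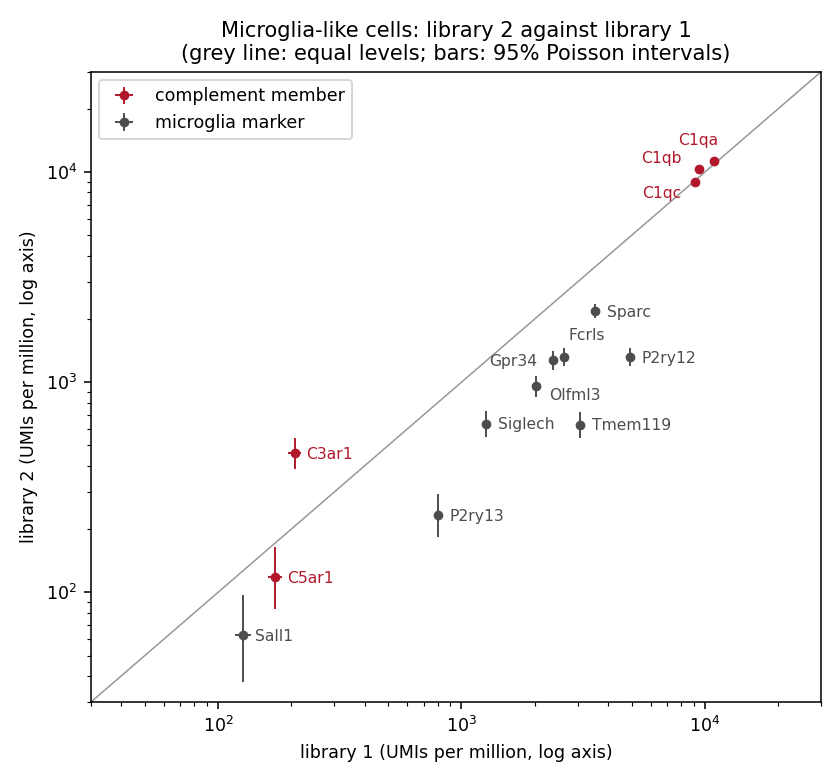
Levels in microglia-like cells of library 2 (64 cells, vertical) against library 1 (1085 cells, horizontal), in CPM on log axes with 95% Poisson intervals; red points are complement members and dark points microglia markers. The C1q chains lie close to the line of equal levels, C3ar1 lies above it at 461 against 207, and every marker drawn lies below it.

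Per cell, C1q took a median of 2.95% of all UMIs in microglia-like cells of library 1 (5th to 95th percentile 2.12% to 3.94%) and 2.94% in library 2 (1.81% to 4.95%). In library 1, 1083 of 1085 cells reached 1%, and in library 2 all 64 did. Border-associated macrophage-like cells had a median of 2.43%, and 82 of 83 reached 1%. With cells thinned to 2000 UMIs, the variance divided by the mean over microglia-like cells of library 1 was 1.78 for C1qa, 1.61 for C1qb and 1.46 for C1qc, against a median of 1.74 over the 41 genes with a mean of at least 5 UMIs. In library 2 it was 3.86, 2.99 and 2.08, against a median of 1.68 over 71 such genes. From the lowest, C1qa, C1qb and C1qc ranked 22, 10 and 7 of the 41 genes in library 1, and 59, 57 and 45 of the 71 genes in library 2, where all 3 chains lay above the median. Across cells C1qa and C1qb correlated with Pearson r of 0.341 in library 1 (1017 cells), 0.669 in library 2 (58 cells) and 0.466 in border-associated macrophage-like cells (83 cells), as a description of cells that share a library.

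**Figure D3:**
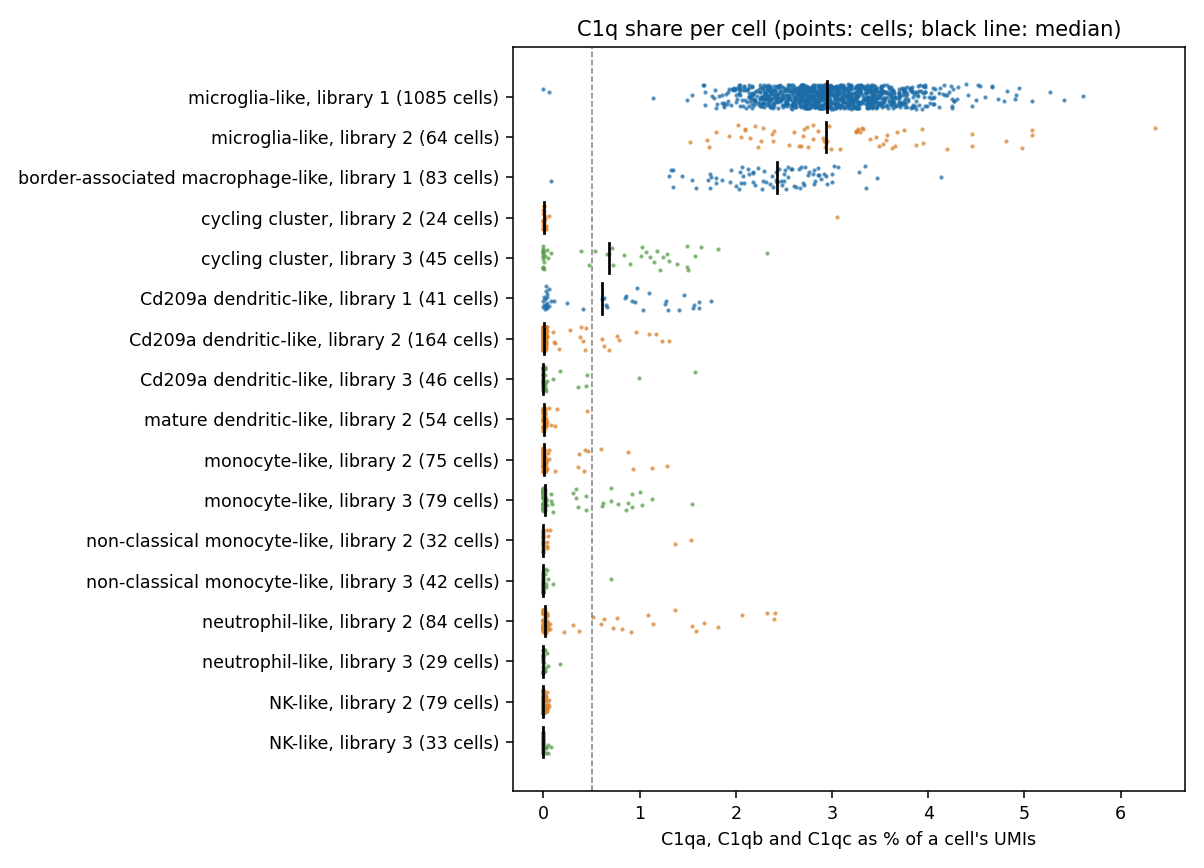
C1qa, C1qb and C1qc together as a percentage of each cell's UMIs (horizontal) by cell class and library; points are cells, black lines medians and the dashed line 0.5%. Microglia-like medians are 2.95% and 2.94%, and the cycling cluster of library 3 is spread from 0% to 2.32% while that of library 2 has 1 cell above the line.

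Outside the macrophage classes, the share of cells with much C1q differed from unit to unit. Cells with at least 0.5% of their UMIs from C1q, a limit set after the distribution was seen, are called C1q-rich here. In the cycling cluster of library 3, 25 of 45 cells were C1q-rich (55.6%, exact binomial interval 40.0 to 70.4) and held 97.4% of that unit's C1q UMIs. Of the other 20 cells, 18 lay below 0.1% and 2 between 0.2% and 0.5%, so that 2 cells lay just under the limit and 7 lay between 0.5% and 1%. In library 2, 1 of 24 cells of the same cluster was C1q-rich (4.17%, 0.105 to 21.1).

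The C1q-rich cycling cells of library 3 differed from the others in the rest of their profile. Microglia markers took a median of 0.792% of their UMIs, against 0.0378% in the other 20 cells and 3.83% in C1q-rich microglia-like cells of library 1. Markers of Cd209a dendritic cells took a median of 0% against 0.209%, and proliferation markers took 0.104% against 0.263%. The C5a receptor gene C5ar1 had a median of 376 CPM against 0, C3ar1 of 138 against 0, and Cfp of 0 against 211. Summed, C5ar1 stood at 433 (375 to 498) in the C1q-rich cells and 18.8 (6.10 to 43.8) in the others, and Cfp at 99.5 (72.6 to 133) and 402 (329 to 486). The median depth was 18301 UMIs against 13637.5, and whether some of these barcodes hold more than 1 cell was not tested beyond a doublet caller that marked 7 of 2144 cells (0.326%).

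C1q-rich cells of other classes carried microglia markers too. Of the neutrophil-like cells of library 2, 18 of 84 were C1q-rich (21.4%, 13.2 to 31.7) and held 91.6% of the unit's C1q. Microglia markers took a median of 0.669% of their UMIs against 0.0207% in the other 66, and neutrophil markers 2.51% against 19.3%. No neutrophil-like cell of library 3 was C1q-rich (0 of 29, which allows a share of up to 10.3%). In library 1, 7 of 13 neutrophil-like cells were C1q-rich (53.8%, 25.1 to 80.8). Among monocyte-like cells 13 of 79 were C1q-rich in library 3 (16.5%, 9.06 to 26.5), and library 2 had 5 of 75 (6.67%, 2.20 to 14.9). Of the cells of library 3, 6 lay between 0.2% and 0.5% and 9 between 0.5% and 1%; in the neutrophil-like cells of library 2 these ranges held 3 and 7. The C1q-rich monocyte-like cells of library 3 had monocyte markers at a median of 0.307% against 0.762% and a median depth of 20066 against 9422 UMIs. Cd209a dendritic-like cells were C1q-rich in 21 of 41 cases (51.2%, 35.1 to 67.1) in library 1. The counts for the other libraries were 10 of 164 (6.10%, 2.96 to 10.9) for library 2 and 2 of 46 (4.35%, 0.531 to 14.8) for library 3.

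The ratio of C1q to microglia-marker UMIs set classes side by side within a library. In library 1 it was 0.813 in microglia-like, 0.830 in neutrophil-like and 0.864 in NK-like cells, and higher at 1.29 in border-associated macrophage-like and 1.33 in Cd209a dendritic-like cells. In library 2 it was 1.52 in microglia-like, 1.52 in neutrophil-like and 1.49 in monocyte-like cells, and it was 1.10 in Cd209a dendritic-like, 1.05 in non-classical monocyte-like, 3.13 in mature dendritic-like and 0.405 in NK-like cells, the last with 17 C1q UMIs in 79 cells. In library 3 it was 1.46 in the 2 microglia-like cells, 1.47 in the cycling cluster, 1.95 in monocyte-like and 0.932 in neutrophil-like cells. The NK-like and neutrophil-like units of library 1 hold 13 cells each. Neutrophil-like and microglia-like cells thus had nearly the same ratio within libraries 1 and 2. In library 3 the neutrophil-like ratio rests on 41 C1q and 44 marker UMIs, with 30 of the 41 in 1 cell. The microglia-like ratio there rests on 2 cells, so no difference between these classes is read from library 3. The part of free RNA and of mixed barcodes in these levels was not tested.

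**Figure D4:**
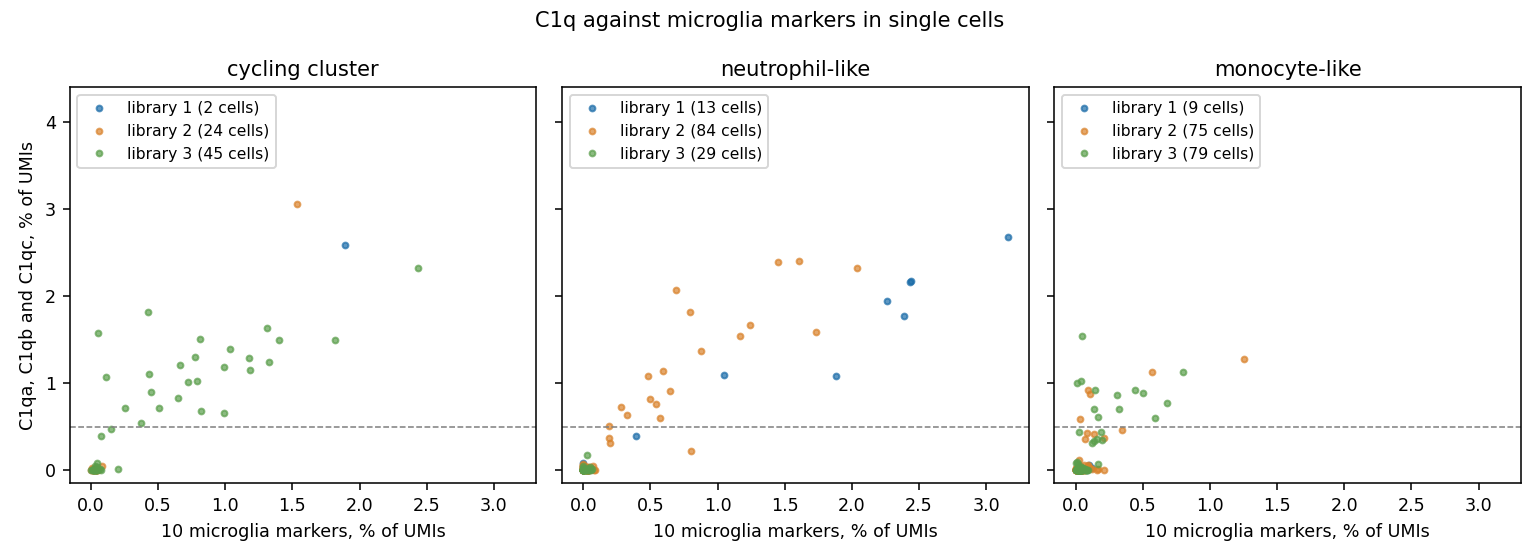
C1q (vertical) against 10 microglia markers (horizontal), both as a percentage of a cell's UMIs, in the cycling cluster, neutrophil-like and monocyte-like cells, coloured by library; the dashed line is 0.5%. Most cells sit near 0 on both axes, and the 25 C1q-rich cycling cells of library 3 and 18 C1q-rich neutrophil-like cells of library 2 stretch up along both.

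C3, Cfb and Cfp, the components of the central step and the alternative pathway, were all but missing from microglia-like cells. C3 had 107 UMIs in 82 cells, of which monocyte-like cells held 61.7% and neutrophil-like cells 26.2%. Its level was 65.1 (33.6 to 114) in neutrophil-like cells of library 3, 58.7 (39.9 to 83.3) in monocyte-like cells of library 2, 31.2 (21.5 to 43.9) in those of library 3 and 22.4 (11.9 to 38.4) in neutrophil-like cells of library 2. Each of these overlapped the next in that order, while the monocyte-like cells of library 2 lay above the neutrophil-like cells of the same library. In microglia-like cells of library 1 there was no C3 UMI in 1085 cells, which allows at most 0.611 CPM from 3 counts, and library 2 had 1 UMI in 64 cells. Unthinned, 28.0% of monocyte-like cells of library 2 had a C3 UMI at a median of 5851 UMIs, and after thinning 6 of 75 did (interval 2.99% to 16.6%). In NK-like cells of library 2 it was 0 of 67 after thinning, which allows a share of up to 4.48%, and 0% unthinned at a median of 3092.

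Cfb had 15 UMIs in 10 cells of the whole matrix, 10 of them in 5 monocyte-like cells of library 2 (18.9 CPM, 9.08 to 34.8), where a single cell held 4. No microglia-like cell of library 1 or 2 had one. Cfb is also uncertain as a gene: 99.4% of its span is overlapped on the same strand by Gm20547, a longer annotated gene, and Gm20547 itself had 0 UMIs. Its level and its nearest genes in pattern, Ifit3 (r = 0.760), Lyz1 (0.743) and Ifih1 (0.689), rest on these few UMIs.

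Cfp, which encodes properdin, had 41.1% of its 1672 UMIs in Cd209a dendritic-like cells, 31.9% in monocyte-like cells and 12.4% in the cycling cluster. Its level was 511 (445 to 583) in Cd209a dendritic-like cells of library 3, 254 (229 to 281) in those of library 2 and 276 (225 to 335) in those of library 1. Monocyte-like cells had 422 (384 to 463) in library 3 and 140 (110 to 176) in library 2. Neutrophil-like cells had 277 (206 to 364) in library 3 and 143 (114 to 178) in library 2. In each of these classes library 3 was highest with intervals apart from library 2. The cycling cluster had 212 (179 to 248) in library 3 and 203 (153 to 265) in library 2. Within library 2 the intervals of the cycling cluster, neutrophil-like and monocyte-like cells overlapped. The other dendritic class differed: mature dendritic-like cells of library 2, led by Ccr7 and Ccl22, had 14.3 (5.24 to 31.1). Microglia-like cells had 11 Cfp UMIs in 1085 cells of library 1, or 2.24 (1.12 to 4.01), and 0 UMIs in 64 cells of library 2, which allows at most 9.87. After thinning, Cfp had a UMI in 57.0% (45.3 to 68.1) of monocyte-like cells of library 3, 52.2% (36.9 to 67.1) of Cd209a dendritic-like cells of library 3 and 0.492% (0.160 to 1.14) of microglia-like cells of library 1, against 4.48% (0.933 to 12.5) of NK-like cells of library 2. Unthinned the shares were 97.5%, 87.0%, 1.01% and 3.80%, at medians of 9996, 8785, 3393 and 3092 UMIs.

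C3ar1, the C3a receptor gene, followed the macrophage classes as C1q did, with 65.3% of its 1769 UMIs in microglia-like and 16.8% in border-associated macrophage-like cells. Its level was 461 (388 to 544) in microglia-like cells of library 2, 347 (309 to 389) in border-associated macrophage-like cells and 207 (194 to 220) in microglia-like cells of library 1. The first and second of these just overlapped and the third lay below both. The cycling cluster of library 3 followed at 107 (84.6 to 134), and NK-like cells had 11.5 (2.36 to 33.5) in library 2 and 0 UMIs in library 3. Thinned, 31.2% (28.3 to 34.1) of microglia-like cells of library 1 and 56.9% (43.2 to 69.8) of those of library 2 had a C3ar1 UMI, against 1.49% (0.0378 to 8.04) of NK-like cells of library 2. Unthinned these were 50.9%, 79.7% and 3.80% at medians of 3393, 3747.5 and 3092 UMIs. Within library 1, the microglia-like cluster led by Gdf15 had 252 (225 to 281), above the 186 (164 to 210) and 195 (177 to 214) of the others, and its C1q sum was the lowest of the 3 at 27409.

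C5ar1, the C5a receptor gene, was spread over more classes. Its level was 280 (242 to 321) in the cycling cluster of library 3, 266 (197 to 351) and 257 (218 to 302) in neutrophil-like cells of libraries 3 and 2, and 256 (223 to 292) in border-associated macrophage-like cells. These 4 could not be told apart. Microglia-like cells of library 1 lay below the last of them at 172 (161 to 184), and those of library 2 had 118 (83.0 to 164), which overlapped library 1. Monocyte-like cells had 116 (96.8 to 139) in library 3 and 28.4 (15.9 to 46.8) in library 2. Cd209a dendritic-like cells of library 2 had 3.44 (1.12 to 8.03) and NK-like cells had 0 UMIs, which allows at most 11.5 in library 2. Thinned, 51.7% (32.5 to 70.6) of neutrophil-like cells of library 3 and 28.9% (26.1 to 31.8) of microglia-like cells of library 1 had a C5ar1 UMI, and 0 of 67 NK-like cells of library 2, which allows a share of up to 4.48%. Unthinned the first 2 were 82.8% and 43.7% at medians of 5128 and 3393 UMIs. The plot of the other members sets these 4 genes side by side.

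**Figure D5:**
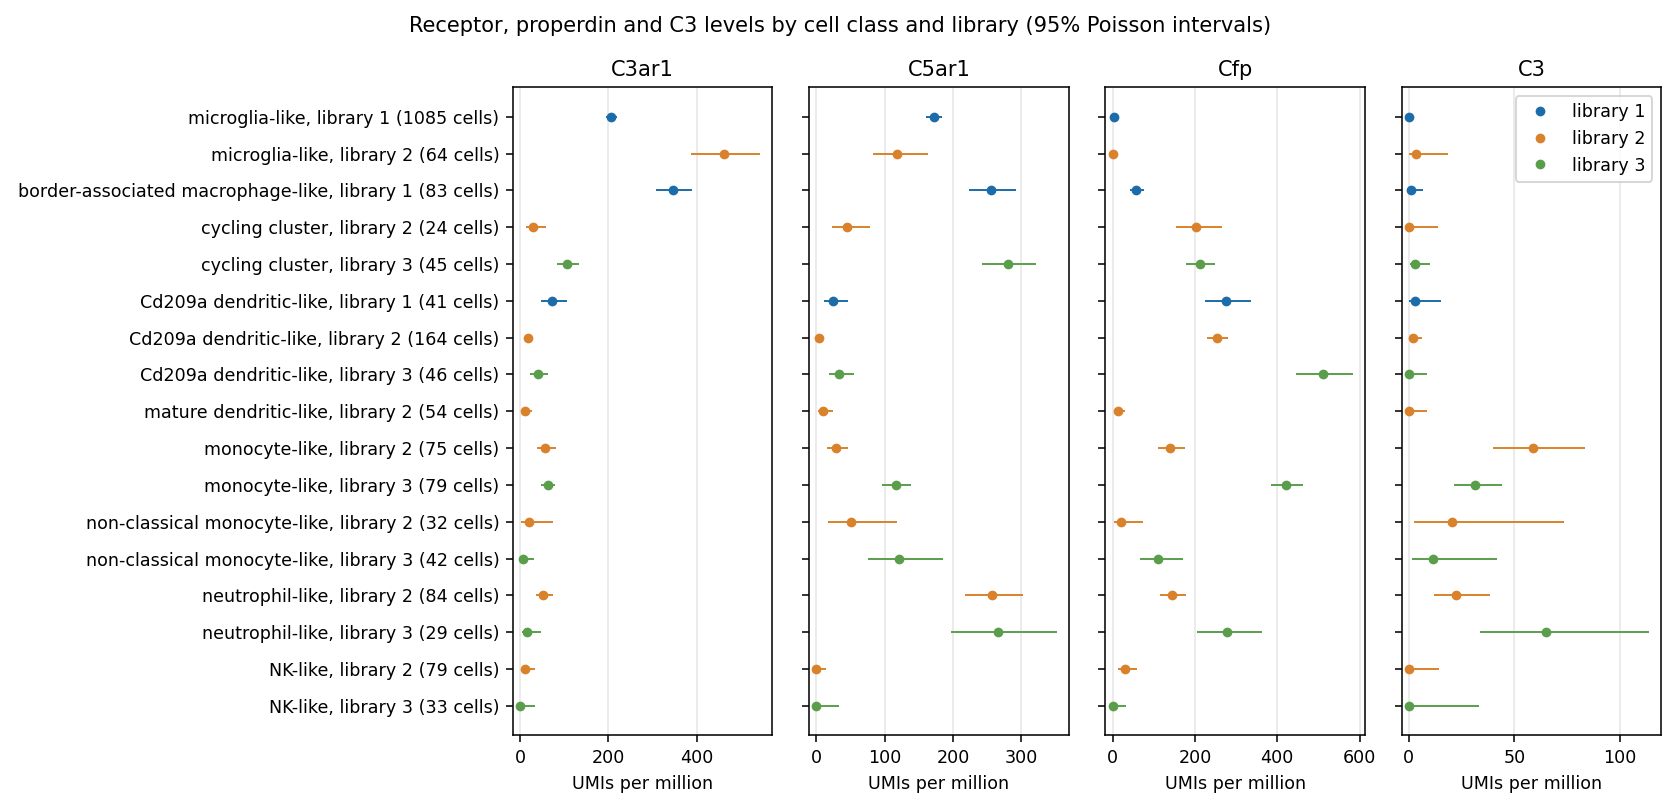
Levels of C3ar1, C5ar1, Cfp and C3 in CPM (horizontal, linear, a scale per gene) in 17 units of cell class and library, with 95% Poisson intervals and colour by library. C3ar1 is highest in the macrophage classes, at 207 to 461, where Cfp reaches 57.3 at most; Cfp is highest in Cd209a dendritic-like and monocyte-like cells of library 3, at 511 and 422.

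In all, 5 pairs of units were compared over all genes with at least 50 UMIs in the pair, and a gene was called where the levels differed by at least 2-fold with Poisson intervals that did not overlap, a rule without replicates. Microglia-like against monocyte-like cells of library 2 gave 5 of 6 members higher, where 14.2% of 2025 genes were higher: C1qa 24.1-fold, C1qc 18.3-fold, C1qb 15.5-fold, C3ar1 8.12-fold and C5ar1 4.17-fold. Cfp was lower, by at least 14.2-fold against the 3-count limit, where 19.7% of genes were lower. C3 had too few UMIs to be compared. In the monocyte-like unit 5 cells held 75.6% of the C1q UMIs. With each cell named by its own markers, C1qa was 71.3-fold, C1qb 56.5-fold and C1qc 69.2-fold higher in microglia-like cells. Under the other filters and clusterings C1qa was 19.3-fold to 24.3-fold higher. With at most 5% mitochondrial counts C5ar1 lost its call, at 113 (79.1 to 156) against 77.4 (60.7 to 97.4), or 1.46-fold. With complement genes kept for clustering C5ar1 (49 UMIs, 3.26-fold) and Cfp (47 UMIs, 0 of them in microglia-like cells) fell under the minimum of 50 UMIs, as did C5ar1 with at least 1000 genes per cell (48 UMIs, 4.28-fold). Since classes were cut from the same cells, with the members left out, these folds describe the classes.

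Microglia-like against border-associated macrophage-like cells of library 1 gave 0 of 6 members higher (1.34% of 7593 genes were) and Cfp lower by 25.6-fold (3.33% were). The C1q chains were 1.13-fold to 1.26-fold higher in microglia-like cells, and C3ar1 and C5ar1 were 1.68-fold and 1.49-fold higher in border-associated macrophage-like cells. When each cell was named by its own markers, the receptor differences passed 2-fold: C3ar1 read 219 and 718 in the 2 classes (3.28-fold) and C5ar1 174 and 646 (3.71-fold). C3ar1 also did as a mean of per-cell levels (2.18-fold). The 2 classes thus differed most in Cfp, at 2.24 and 57.3.

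Microglia-like cells of library 2 against library 1 gave C3ar1 higher by 2.23-fold, 1 of 5 members tested, where 1.7% of 7238 genes were higher and the median log2 ratio of all genes was -0.29. None of the 5 was lower, where 6.18% of genes were. The C3ar1 difference kept its direction under all 8 alternatives that gave a value, from 1.75-fold (383 against 219, each cell named by its own markers) to 2.48-fold (mean of per-cell levels). It was present within the microglia-like cluster of 449 and 35 cells, at 390 (284 to 521) in library 2 and 186 (164 to 210) in library 1, and in the cluster led by Gdf15, at 518 (414 to 639) and 252 (225 to 281).

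Monocyte-like cells of library 3 against library 2 gave 2 of 7 members higher, Cfp by 3.01-fold and C5ar1 by 4.10-fold, where 4.44% of 3449 genes were higher, and 0 lower, where 3.57% were. Cfp was 2.25-fold to 4.39-fold higher under all 8 alternatives, while C5ar1 fell to 1.30-fold with at most 5% mitochondrial counts. The C1q sum, 2866 and 1628 in these units, had a ratio of 1.76 that turned under 3 alternatives, to 0.57 at a clustering resolution of 1.0, 0.40 with complement genes kept for clustering and 0.96 with at least 1000 genes per cell. Neutrophil-like cells of library 3 against library 2 gave C1qa lower by 14.7-fold, C1qb by 9.57-fold and C1qc by 33.1-fold, 3 of 5 members where 6.94% of 1527 genes were lower, and 0 higher, where 1.83% were. All 3 calls were lost when each cell was named by its own markers: C1qa then read 893 in library 3 and 1137 in library 2, C1qb 915 and 1042, and C1qc 1061 and 860. C5ar1 overlapped between these units, at 266 and 257.

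Over the 17 units, the genes whose log2 levels ran most like each member were named by Pearson r, as a description of units that share libraries and depth. For C1qa they were C1qb (0.990), Trem2 (0.989) and C1qc (0.984), Trem2 being a lipid receptor of microglia. For C1qb the nearest were the other chains, and for C1qc they were the other chains and Trem2 (0.982). For C3ar1 they were Atp13a2 (0.953), Camk1 (0.947) and C1qb (0.938). For C5ar1 they were Hk3 (0.912), Trpm2 (0.902) and Mtmr6 (0.832), and for Cfp Gsn (0.921), Pitpna (0.902) and Wdfy4 (0.884). For C3 they were Prdx5 (0.954), Chil3 (0.936), a monocyte marker used here to name classes, and Ethe1 (0.910). C3 itself had 107 UMIs, fewer than the 200 required of the genes set beside it, so its r values rest on few UMIs. C1qb is the only member among the 3 nearest genes of C3ar1, and none is among those of C5ar1, Cfp or C3. With a pseudocount of 1 in place of 10, 14 of the 24 genes named for the 8 members remained.

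Few other complement genes reached a sizeable level in these cells. Of a list of 42 further genes, 41 were in the matrix, 29 had a UMI and 10 reached 50 CPM in some unit. Of 13 recognition and activation genes in the matrix 1 did, C4b, at 52.6 (38.4 to 70.4) in border-associated macrophage-like cells, against 1.22 (0.449 to 2.66) in microglia-like cells of library 1. Of 6 terminal pathway genes none did. Among 13 inhibitors, Cr1l stood at 106 (97.2 to 116) in microglia-like cells of library 1 and 126 (86.8 to 177) in NK-like cells of library 2, with overlapping intervals. Clu had no UMI in microglia-like cells of library 1, and reached 50.8 (16.5 to 119) in non-classical monocyte-like cells of library 2, the unit with endothelial markers, from 5 UMIs. Of 9 other receptors 6 reached it, among them Itgam, the gene of the Cd11b antigen used in the sort, at 257 (243 to 272) in microglia-like cells of library 1 and 61.2 (35.0 to 99.3) in NK-like cells of library 2, and Itgax, highest in NK-like cells of library 2 at 134 (93.2 to 186), at 3.06 (1.71 to 5.04) in microglia-like cells of library 1 and 36.2 (18.1 to 64.8) in those of library 2. Microglia-like cells thus carried C1q, C3ar1 and C5ar1 messages, with C3 and Cfb at 0 UMIs in library 1.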

How the data were processed

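Single-cell UMI counts per gene were deposited by the authors as 1 matrix of raw counts over 3 barcode suffixes. Per the submitters' processing notes the tools include Cell Ranger 2.0.1 and the build is mm10; the annotation, the cell calling and the way the libraries were joined are not given in the sources used here. Per the labels, 3 prime v2 kits were used, and 3 groups are described here.

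From the counts, a cell was kept with 500 or more genes detected and no more than 10% of counts from mitochondrial genes (5 of 2149 left out), and Scrublet at an assumed rate of 5% marked 7 of 2144 as doublets, which were removed. Scanpy 1.11.5 clustered 2137 cells on 30 components of 1989 of the 2000 most variable genes, complement genes left out (15 neighbours, Leiden resolution 0.5, seed 0). A cluster was named where at least 3 markers of a list were detected in 30% of its cells and at 2 times the median level over clusters. Among such lists, that with the most genes among the cluster's 10 leading genes gave the name. With none among the 10 leading genes, 80% of the list had to pass. This rule was settled after the clusters were seen. Levels are counts summed per class and library, per 1000000 UMIs, with 95% Poisson intervals; shares use cells thinned to 2000 UMIs with exact binomial intervals, and the limit of a count of 0 is 3 counts. Intervals cover counting error only. No p-value is given, because each library is 1 sample. Comparisons needed 50 UMIs, 2-fold and intervals apart; pattern genes needed 200 UMIs, with log2(level + 10). All 8 members are described, and for each the 3 genes nearest in pattern are named, except that some genes are not reported here. Of these steps only the comparison rule was tested on simulated data, which were Poisson counts with no spread beyond counting error. Gene positions are from GENCODE on GRCm38. The members, lists and tests were chosen with earlier results of these data known.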

Additional observations from a re-analysis of the deposited data

How the results depend on the processing

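No paired analysis was possible because each library is 1 sample, no label maps the barcode suffixes to groups, and no test across samples was made. The C1q sum in microglia-like cells, 29496 counts per 1000000 UMIs in library 1 and 30585 in library 2, left its counting interval when each cell was named by its own markers (28409 and 26039) and when the 50 most abundant genes were taken out of the total (41401 and 45179.6), in library 1 as a mean of per-cell levels (29861), and in library 2 with at least 1000 genes per cell (28438) or at most 5% mitochondrial counts (29159). The cause was not tested, except that taking genes out of the total raises all levels by construction. The 6 members called between microglia-like and monocyte-like cells of library 2 became 4 to 6 under the alternatives; C1qa, C1qb, C1qc and C3ar1 were called in each of those tried by membership (all but the 1.5-fold limit). Of the lost calls, those with complement genes kept and with at least 1000 genes fell under the minimum of 50 UMIs. The 25 C1q-rich cycling cells of library 3 became 27 and 18 at limits of 0.2% and 1%, and 24 to 34 under other filters and clusterings (34 of 59 cells at resolution 1.0); these were chosen after seeing the data. Of 704 levels recomputed 471 stayed within their counting interval, and of 240 shares 184 did, most of the rest with no thinning or thinning to 1000 UMIs. Depth limits C3, with 107 UMIs, and Cfb, with 15. The doublet caller's low yield, 0.326%, leaves mixed barcodes untested.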
